A study of Mus musculus with 11 samples.

Results

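The response of the old mouse pancreas to caerulein was described across all genes, from 5 libraries of bulk pancreas RNA taken from C57BL/6JRj mice aged 18 months. They were chosen by their labels alone: the 3 libraries of caerulein-treated mice (1, 2 and 3) were set against the 2 of untreated mice (2 and 3), out of 11 libraries in the series. The treated mice had received 4 intraperitoneal injections of 125 µg/kg, spaced an hour apart, and their libraries carry the label 5H, the submitters' wording on the hour of sampling being open to more than 1 reading. The remaining 6 libraries, 3 untreated and 3 treated mice aged 7 weeks of the same strain, served the shared estimate of spread and the test of whether the ages differed. The labels name no other allele or agent in any group, and each library is labelled as 1 mouse, so the p-values measure the spread between these mice.

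Caerulein is an analogue of cholecystokinin, the gut hormone that makes pancreatic acinar cells release digestive enzymes. At doses above those of a meal it keeps the acinar cells' calcium high, blocks apical secretion and lets enzymes become active inside the cell, which is why it is the common way to start an experimental pancreatitis. Acinar cells make most of the RNA of this organ, and their secretory load makes them depend on folding in the endoplasmic reticulum.

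The 18-month libraries held between 14223190 and 26537091 counts. On a principal component analysis of log2 values in these 5 libraries, the first component held 81.3% of the variance, with the untreated libraries at -99.6 and -95.2 and the caerulein libraries between 64.1 and 66.3. Markers of acinar cells dominated all 5, with a summed level of 384900.0 and 405100.0 CPM in the untreated and between 296600.0 and 316200.0 CPM (of library totals) in the caerulein libraries, so the labelled tissue matched its defining genes. Of the libraries of 7-week mice, untreated mouse 2 stood apart with lymphoid and fat transcripts. It is in neither group compared here but enters the filter, the scaling and the spread.

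Caerulein changed close to every other measurable gene at 18 months. In edgeR's quasi-likelihood F test (p adjusted after Benjamini and Hochberg), 6804 of 14113 genes tested were called at an adjusted p below 0.05, which is 48.2%, with 3806 higher (27%) and 2998 lower (21.2%). At a fold of at least 2, 2579 were higher and 1968 lower, and at 16-fold or more the counts were 277 and 65. The libraries of the groups did not overlap for 10047 genes (71.2%, with 37.8% upward and 33.4% downward). Most genes named below were picked for a small p or a large change. That their groups were apart largely follows from that choice and adds no support. Of protein-coding genes 50.1% were called, against 38.5% of long non-coding RNAs and 24.4% of pseudogenes. Changes are relative to a TMM scaling, under which the median of all genes was 0.07 on the log2 scale. Scaling by library totals alone moved that median up by 0.619 and made 83.5% of the called genes higher instead of 55.9%, so a gene or group near 0 has no fixed sign. Levels are TMM-scaled CPM (counts per 1000000 counts), given for every mouse in the order untreated 2 and 3, then caerulein 1, 2 and 3, and errors of log2 fold changes are standard errors.

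**Figure D1:**
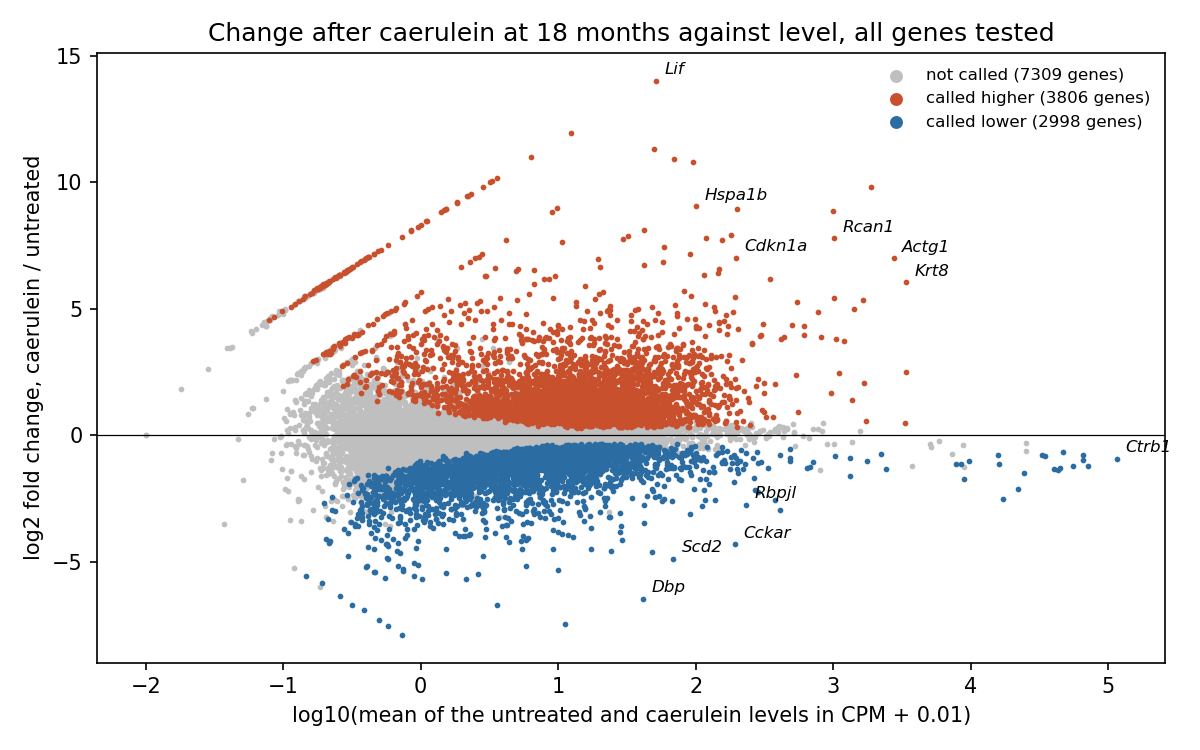
Each point is 1 of the 14113 genes tested at 18 months, with the log10 of its mean level (CPM + 0.01) on the x axis and the log2 fold change of caerulein over untreated on the y axis. The 3806 genes called higher reach further from 0 than the 2998 called lower, and the enzymes at the right edge, such as Ctrb1 (-0.92) and Clps (-2.13), lie below 0. The diagonal runs of points at the left are genes with 0 or few reads in 1 group, whose fitted fold depends on the prior count.

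The 8 largest rises among named genes with a mean of at least 20 CPM in 1 group belonged to a cytokine, a neuropeptide, heat shock proteins, a phosphatase, a peptidase and transcription factors, all with few or no reads in the untreated organ. Lif (ENSMUSG00000034394, chromosome 11, 4257557 to 4272514), a cytokine of the interleukin-6 family, had no reads in either untreated mouse and 95.1, 110.4 and 102 CPM in the treated mice, which was at least 1032-fold higher (adjusted p = 1.09e-06). Tac1 (chromosome 6, 7554879 to 7565834), which encodes substance P, likewise went from no reads to 29.3, 23.7 and 21.3 CPM, at least 256-fold higher. Both genes were read in every treated mouse and in neither untreated one. With 1 to 3 untreated reads, the ratios were 3084 (95% counting interval 553 to 121800.0) for the inducible heat shock protein Hspa1a, 2108 (95% counting interval 583 to 17410.0) for Dusp5, a nuclear phosphatase of ERK, and 1943 (95% counting interval 665 to 9423) for Kel, a metalloendopeptidase (chromosome 6, 41686330 to 41704339). Next came Hspa1b (0.504 and 0.271 CPM untreated and 239, 177 and 187 CPM after caerulein, log2 fold change 9.07 ± 0.67). Fos, a subunit of the AP-1 transcription factor, stood at 0.336 and 0.271 CPM untreated and 122, 58.4 and 69.9 CPM after caerulein (8.11 ± 0.78). Atf3, a stress-induced transcription factor, stood at 1.6 and 1.35 CPM untreated and 377, 295 and 409 CPM after caerulein (7.94 ± 0.24). Libraries that did not overlap between the groups were a condition for this ranking.

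The largest falls were led by output genes of the circadian clock. Dbp (ENSMUSG00000059824, chromosome 7, 45705088 to 45710203), a transcription factor under direct clock control, went from 79.6 and 84.4 to 0.84, 0.78 and 1.22 CPM (log2 fold change -6.45 ± 0.25, adjusted p = 4.11e-08). Its relative Tef (chromosome 15, 81802421 to 81826863) stood at 83.5 and 99.4 CPM untreated and 3.36, 3.75 and 4.27 CPM after caerulein (-4.60 ± 0.21, adjusted p = 8.75e-08). The clock repressor Per3 stood at 26 and 40.7 CPM untreated and 1.22, 1.71 and 1.55 CPM after caerulein (-4.49 ± 0.34). Between them in rank were Scd2 (chromosome 19, 44293676 to 44306864), a fatty acid desaturase, with 116 and 149 CPM untreated and 4.16, 3.36 and 6.11 CPM after caerulein (-4.87 ± 0.35), and Galnt6os, a transcript antisense to Galnt6 (-4.58 ± 0.34), whose reads cannot be told from those of its partner because the strand setting of the counting is not given. Cckar, the receptor that caerulein binds, stood at 382 and 348 CPM untreated and 23.2, 15.3 and 17.4 CPM after caerulein (-4.29 ± 0.37). Ppp1r1b, an inhibitor of protein phosphatase 1, and the small membrane protein gene Smim24 completed the 8 (-4.13 ± 0.27 and -4.02 ± 0.48). That the highest caerulein library lay below the lowest untreated one was a condition for naming these 8 genes.

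Measured per kilobase of gene model, so that genes can be compared, the largest gains among genes without provisional names belonged to the cytoskeleton and to stress proteins. The keratin Krt8 went from 50.5 to 3402 CPM per kb, the actin gene Actg1 from 16.1 to 2051, the stress protein Nupr1 from 398 to 2286 and the keratin Krt18 from 59.4 to 1896. Then followed the metallothionein Mt1 (519 to 2168), Actb (29.6 to 1200.0), the actin-severing protein Dstn (24.1 to 1037) and Chac1, a glutathione-degrading enzyme of the integrated stress response (30.9 to 917). The largest losses per kb were all secreted acinar products: the chymotrypsinogen Ctrb1 (170986 to 90570.1), colipase Clps (58679.9 to 13369), the elastase Cela2a (57613 to 24979.5), the trypsinogen Prss2 (70119 to 44560.4), the carboxypeptidase Cpa1 (44338 to 19061), the ribonuclease Rnase1 (29116 to 5167), the lipase Pnlip (55985 to 32369) and the trypsinogen Try4 (51638 to 30527). Of these 16 genes, the calls of 4 hung on single mice. Ctrb1 was no longer called without untreated mouse 3 (-0.64, adjusted p = 0.144), nor was Try4 without untreated mouse 3 (-0.57, adjusted p = 0.167) or caerulein mouse 2 or 3. Prss2 missed the threshold without any 1 of the 5 mice or of the 3 treated mice of 7 weeks (adjusted p from 0.0512 to 0.242), and Pnlip without any 1 of the 5 or young caerulein mouse 1 or 2 (0.0523 to 0.2). With library totals Prss2, Pnlip and Try4 were not called (-0.04, adjusted p = 0.712, -0.18, adjusted p = 0.208 and -0.15, adjusted p = 0.326). With no filter (27020 genes tested) Ctrb1, Cela2a, Prss2, Cpa1, Pnlip and Try4 were not called.

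**Figure D2:**
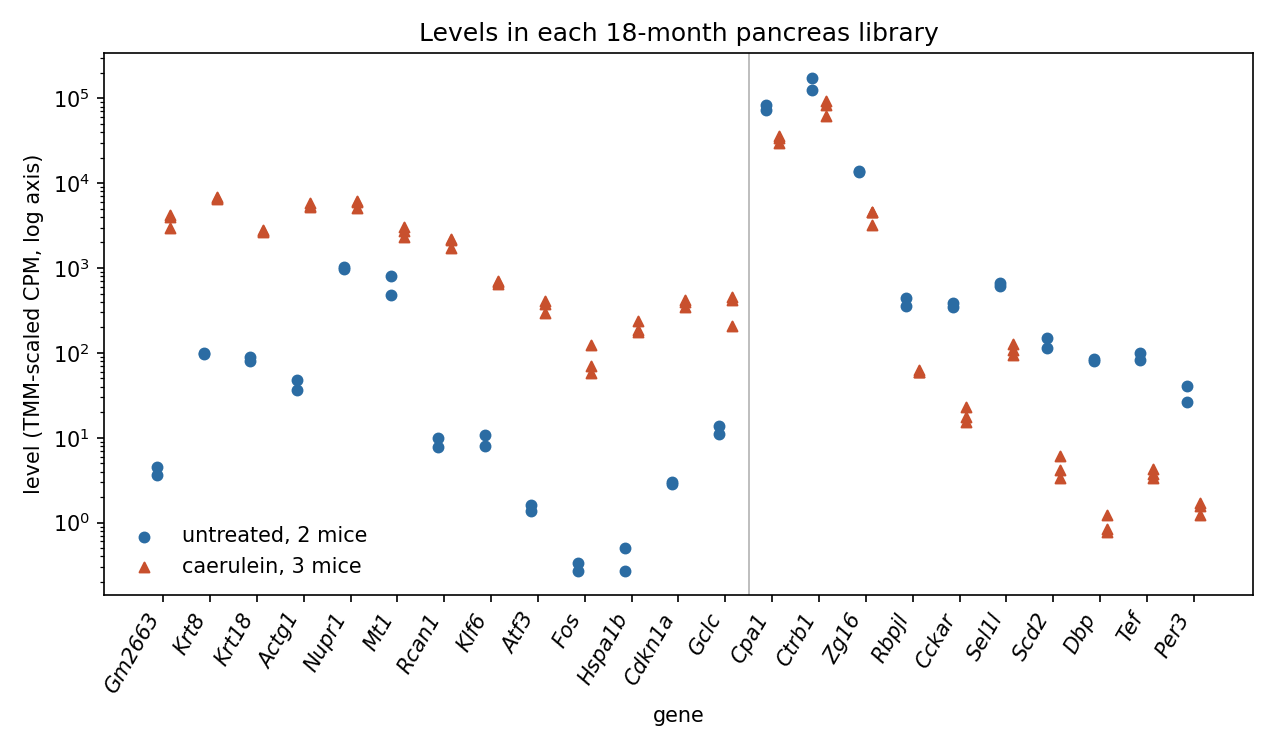
Levels of 23 genes in each 18-month library, in TMM-scaled CPM on a log axis, with circles for the 2 untreated mice and triangles for the 3 caerulein mice; genes left of the grey line were higher after caerulein and genes right of it lower. No triangle overlaps the circles of its gene, which was a condition for naming the largest changes. The gap is smallest for the enzymes at the top of the axis.

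Digestive enzyme and granule protein transcripts took up less of the library after caerulein. Their share of all counts was 75.8% and 78.0% in the untreated mice and 60.5%, 58.3% and 56.6% in the treated mice, a difference of means of -18.4 percentage points (2-sided exact permutation test over the 10 splits, p = 0.1, the smallest p that 3 against 2 mice can give). Every treated mouse lay below both untreated mice. In a share of bulk tissue counts, fewer acinar cells, less of these RNAs per cell and more of other RNAs cannot be told apart. By gene, 23 of 34 tested members fell (21.2% of all genes were lower), 1 rose and 10 were not called, with a median log2 fold change of -0.95. Clps, the cofactor of pancreatic lipase, stood at 33897 and 37810.1 CPM untreated and 9147, 8477 and 6882 CPM after caerulein (-2.13 ± 0.22, adjusted p = 1.47e-05). Rnase1 stood at 28592 and 29173 CPM untreated and 5215, 6093 and 4069.5 CPM after caerulein (-2.49 ± 0.26), the chymotrypsin-like Ctrc at 421 and 454 CPM untreated and 101, 93.6 and 99.7 CPM after caerulein (-2.15 ± 0.22) and the elastase Cela3a at 24.6 and 22.3 CPM untreated and 9.01, 5.21 and 6.22 CPM after caerulein (-1.77 ± 0.20). All 4 had non-overlapping libraries. Spink1, the inhibitor that guards against trypsin inside the cell, was not called at 1173 and 1075 CPM untreated and 979, 949.8 and 746 CPM after caerulein (-0.34 ± 0.27, adjusted p = 0.341). It was called lower in the 5 libraries of 18 months alone, and also without young untreated mouse 2 (-0.40, adjusted p = 0.0205). With library totals it had the other sign (0.26, adjusted p = 0.229). The number that fell was 12 without untreated mouse 3, 14 with library totals and 15 with mouse number as a block.

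Not all genes of the trypsin cluster on chromosome 6 moved down. Prss1, the member called higher, stood at 8.99 and 4.93 CPM untreated and 57, 8.48 and 24.8 CPM after caerulein (2.14 ± 0.73, adjusted p = 0.0309), where untreated mouse 2 lay above caerulein mouse 2, and the call was lost without untreated mouse 2 (2.63, adjusted p = 0.082), without untreated mouse 3 (1.77, adjusted p = 0.21) or without caerulein mouse 1 (1.27, adjusted p = 0.125). At the edge of the cluster, 3 neighbouring protein-coding genes within 51105 bases rose steeply. They carry provisional names and so fall outside the naming rule, and were picked out after their values were seen. Gm4744 (chromosome 6, 40948375 to 40951870) stood at 1.01 and 0.65 CPM untreated and 445, 411 and 342 CPM after caerulein (8.95 ± 0.40, adjusted p = 6.88e-08). 1810009J06Rik (chromosome 6, 40964754 to 40968435) stood at 3.86 and 4.6 CPM untreated and 2138, 2005 and 1793 CPM after caerulein (8.86 ± 0.78, adjusted p = 5.02e-06). Gm2663 (chromosome 6, 40995830 to 40999479) stood at 3.61 and 4.55 CPM untreated and 4198, 3994 and 2985 CPM after caerulein (9.82 ± 1.01, adjusted p = 1.57e-05). The untreated and treated libraries of these 3 genes were far apart. Per kb, Gm2663 went from 4.73 to 4322 CPM and 1810009J06Rik from 4.8 to 2243 CPM, so that the gain of Gm2663 was above that of Krt8 and the gain of 1810009J06Rik above that of Actg1. In local alignments of GENCODE transcripts, they shared 73.6%, 74.3% and 74.2% of aligned bases with Prss2, compared with 90.7% for Try4, 69.7% for the elastase Cela2a and 67.6% for the chymotrypsinogen Ctrb1. The next gene along, 2210010C04Rik (76.6% identity with Prss2), starts 30788 bases further and went the other way, from 57691 and 67191 to 26163, 27658 and 19296 CPM (-1.36 ± 0.30, adjusted p = 0.00285). At 7 weeks the 3 genes had log2 fold changes of 9.03 ± 0.32, 8.45 ± 0.63 and 9.24 ± 0.81, and the difference between the ages was not called for any of them. Reads of such related genes were divided as the authors' counting left them.

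The machinery that moves granules split by member. Of 28 genes of granule transport and exocytosis 11 fell (21.2% of all genes were lower), 3 rose (27% were higher) and 14 were not called. Their median of -0.32 became 0.29 with library totals, and 5 fell then. Without untreated mouse 2 or 3, 6 and 6 fell. The fusion proteins of the granule and its partners included Vamp2 (22.9 and 27.2 CPM untreated and 7.6, 6.82 and 8.05 CPM after caerulein, -1.74 ± 0.16), the granule GTPase Rab27a (25.5 and 26.3 CPM untreated and 4.09, 3.9 and 5 CPM after caerulein, -2.58 ± 0.31) and Rab3a (8.65 and 7.8 CPM untreated and 0.344, 0.195 and 0.833 CPM after caerulein, -4.19 ± 0.78). All 3 were lower in every treated mouse. The apical syntaxin Stx3 rose instead (7.23 and 6.17 CPM untreated and 51, 57 and 49.1 CPM after caerulein, 2.97 ± 0.21), as did Sec24d, a coat protein of vesicles leaving the endoplasmic reticulum (1.10 ± 0.17).

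Among secretagogue receptors and calcium signalling genes, 10 of 26 rose and 7 fell (27% and 21.2% of all genes), with a median of 0.05. With library totals the median was 0.69 and 4 fell. Rcan1, a feedback inhibitor of the calcium-activated phosphatase calcineurin, went from 7.81 and 10 to 2169, 1713 and 2139 CPM (7.81 ± 0.30, adjusted p = 4.11e-08). Rgs2, which switches off the Gq proteins that Cckar couples to, stood at 2.44 and 2.6 CPM untreated and 41.8, 42.2 and 26.3 CPM after caerulein (3.86 ± 0.45). Atp2a2, the pump that returns calcium to the endoplasmic reticulum, stood at 91.2 and 90.7 CPM untreated and 226, 219.5 and 236 CPM after caerulein (1.32 ± 0.17). Thus Cckar transcript was lower and Rcan1 and Rgs2 transcripts higher in all 3 treated mice. Itpkc, a kinase that removes the calcium-releasing messenger inositol trisphosphate and was picked after its value was seen, stood at 2.94 and 3.14 CPM untreated and 236, 316 and 318 CPM after caerulein (6.57 ± 0.21). Trpv6, a calcium entry channel picked in the same way, stood at 4.03 and 3.09 CPM untreated and 56, 42.5 and 51.5 CPM after caerulein (3.83 ± 0.23).

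Against 21.2% lower and 27% higher of all genes, transcription factors that hold acinar identity were mostly lower. Of 18 tested, 11 fell, 2 rose and 5 were not called, with a median of -0.88, which was -0.25 with 6 lower under library totals, and without untreated mouse 3 7 fell. Rbpjl, the acinar subunit of the PTF1 complex that switches on enzyme genes, stood at 357 and 447 CPM untreated and 62.3, 59 and 60.3 CPM after caerulein (-2.73 ± 0.21, adjusted p = 2.17e-06). Creb3l1, a secretory pathway factor, stood at 31.8 and 37.4 CPM untreated and 8.48, 7.8 and 8.49 CPM after caerulein (-2.07 ± 0.21), and Nr5a2, a nuclear receptor that works with PTF1, at 46.8 and 31.7 CPM untreated and 17, 15.6 and 10 CPM after caerulein (-1.46 ± 0.30). Mecom (-1.95 ± 0.28) and the endoderm factor Onecut1 (-2.85 ± 0.46) were also lower, without overlap. Ptf1a, which gives PTF1 its DNA binding, was not called, at 13.4 and 11.4 CPM untreated and 10.8, 15.9 and 9.49 CPM after caerulein (-0.04 ± 0.34, adjusted p = 0.934), and its libraries overlapped. Xbp1, a factor of secretory capacity, was not called either (0.39 ± 0.21, adjusted p = 0.164), but was with library totals (0.99, adjusted p = 2.99e-04) or when young untreated mouse 2 was dropped (0.32, adjusted p = 0.0457). The endoderm factor Foxa3 rose (11.8 and 13.4 CPM untreated and 36, 33.1 and 37.4 CPM after caerulein, 1.49 ± 0.32).

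Immediate early genes, which need no new protein to be switched on and include the AP-1 factors, were the list with the highest share of risers. Of 34 tested 32 rose (27% of all genes were higher) and 1 fell, with a median of 4.29. Srf, the serum response factor, stood at 8.91 and 11.3 CPM untreated and 216, 185 and 172 CPM after caerulein (4.23 ± 0.20, adjusted p = 9.42e-08). Btg2, which restrains cell division, stood at 26.1 and 28.4 CPM untreated and 1303, 1076 and 783 CPM after caerulein (5.27 ± 0.33), and the AP-1 subunit Fosl1 at 0.252 and 0.271 CPM untreated and 59.4, 53.1 and 78.9 CPM after caerulein (7.89 ± 0.38). The zinc finger factor Egr1 stood at 1.93 and 1.08 CPM untreated and 469, 278 and 179 CPM after caerulein (7.73 ± 0.73) and the AP-1 subunit Junb at 3.11 and 3.57 CPM untreated and 309, 237 and 312 CPM after caerulein (6.41 ± 0.57). No untreated library reached the lowest treated one in any of these. The polo-like kinase Plk2 was the member that fell (93.5 and 107 CPM untreated and 12.9, 19.9 and 19.8 CPM after caerulein, -2.52 ± 0.30). Kruppel-like factors, zinc finger regulators of epithelial state, rose in 12 of 14 with 2 lower and a median of 2.19. Klf6 stood at 7.9 and 10.7 CPM untreated and 687, 705 and 651 CPM after caerulein (6.18 ± 0.31), Klf10 at 4.79 and 3.14 CPM untreated and 74.3, 66.1 and 62.5 CPM after caerulein (4.12 ± 0.20) and Klf5, a regulator of epithelial growth, at 2.35 and 2.33 CPM untreated and 42.1, 48 and 48.5 CPM after caerulein (4.30 ± 0.27). Klf15, a metabolic member, fell (71.7 and 83.8 CPM untreated and 9.28, 6.63 and 4.94 CPM after caerulein, -3.47 ± 0.33).

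Part of the genes that brake MAP kinase signalling, and most genes of the epidermal growth factor axis, rose as well. Of 19 MAP kinase phosphatases and Sprouty family genes 9 rose, 1 fell and 9 were not called (median 2.06), where 27% of all genes rose and 21.2% fell. Errfi1, an inhibitor of the EGF receptor, stood at 8.91 and 8.83 CPM untreated and 276, 290.2 and 231 CPM after caerulein (4.91 ± 0.41) and the phosphatase Dusp1 at 1.85 and 3.52 CPM untreated and 77.5, 82 and 120.3 CPM after caerulein (5.07 ± 0.42). Of 11 EGF family genes 7 rose and 1 fell (median 2.30). The ligand Hbegf stood at 0.588 and 0.704 CPM untreated and 123, 124 and 104 CPM after caerulein (7.46 ± 0.28, adjusted p = 4.11e-08) and the receptor Egfr at 8.99 and 7.26 CPM untreated and 149, 133 and 109 CPM after caerulein (4.01 ± 0.21). Rhbdf2, which carries the ligand-shedding protease to the surface, stood at 4.96 and 7.64 CPM untreated and 108, 96.2 and 94.3 CPM after caerulein (3.96 ± 0.21). Hbegf, Egfr, Rhbdf2 and Errfi1, named for their small p, were higher in every treated mouse, as 37.8% of all genes were. The ligand Egf itself fell (55.8 and 54.3 CPM untreated and 22.7, 25.2 and 22.9 CPM after caerulein, -1.22 ± 0.21). The ligand Areg had too few reads to be tested.

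Actin cytoskeleton genes rose together. SRF binds the CArG box in promoters of early genes and of actin and its partners, and is held in check by free actin monomers through its coactivators. Of 33 tested members of a list of SRF targets and actin genes, 27 rose and the other 6 were not called, with a median of 2.44 (27% of all genes were higher). Actg1 stood at 48.6 and 36.8 CPM untreated and 5824, 5349 and 5179.9 CPM after caerulein (7.00 ± 0.54, adjusted p = 2.03e-06) and Actb at 83.9 and 74.6 CPM untreated and 3520.2, 3183 and 2941 CPM after caerulein (5.34 ± 0.78). The focal adhesion proteins Tes (10.2 and 9.42 CPM untreated and 125, 116 and 117 CPM after caerulein, 3.61 ± 0.13) and Vcl (5.21 and 5.36 CPM untreated and 85.8, 78.9 and 77.5 CPM after caerulein, 3.93 ± 0.15) and the actin crosslinker Actn4 (3.65 ± 0.15) were among those with the smallest p, while Zyx, at adhesions too, stood at 8.74 and 8.45 CPM untreated and 409, 345 and 378 CPM after caerulein (5.46 ± 0.35). None of these genes overlapped between groups, and neither did 71.2% of all genes. In RefSeq promoters of the GRCm38.p6 build, the 250 bases before the start held a CArG box on either strand in 8 of 35 promoters of the actin list (22.9%, 7 genes, with 30 of 35 genes matched), against 1.47% of all 32851. As the list was written to hold SRF targets, a raised share was built in and tells nothing of the response. In the immediate early list 6 of 36 promoters held the box (16.7%, 3 genes, with 27 of 35 genes matched). The last 150 bases before the start of 4 risers are given on the strand of the gene, with the CArG box in capitals. Srf, Zfp36 and Egr2 are from the immediate early list and Actg1 from the actin list. The windows are chr17:46556163-46556312 (minus strand), chr7:28379229-28379378 (minus), chr10:67537719-67537868 (plus) and chr11:120348496-120348645 (minus).

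Srf: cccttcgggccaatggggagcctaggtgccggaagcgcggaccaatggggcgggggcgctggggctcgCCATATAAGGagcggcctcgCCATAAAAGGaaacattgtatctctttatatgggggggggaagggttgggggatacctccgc

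Zfp36: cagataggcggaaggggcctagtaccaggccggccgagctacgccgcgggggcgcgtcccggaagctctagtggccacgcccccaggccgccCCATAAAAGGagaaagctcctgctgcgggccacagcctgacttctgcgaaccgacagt

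Egr2: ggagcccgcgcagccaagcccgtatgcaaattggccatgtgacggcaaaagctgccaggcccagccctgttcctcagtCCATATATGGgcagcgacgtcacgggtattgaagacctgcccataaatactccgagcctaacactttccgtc

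Actg1: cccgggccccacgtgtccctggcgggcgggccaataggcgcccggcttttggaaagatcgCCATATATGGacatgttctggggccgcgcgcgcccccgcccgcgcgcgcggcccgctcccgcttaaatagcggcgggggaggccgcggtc

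The Srf window held 2 boxes. Zfp36, a protein that speeds decay of cytokine messages, stood at 4.62 and 6.01 CPM untreated and 186, 155 and 82.6 CPM after caerulein (4.72 ± 0.67) and the early gene Egr2 at 0 and 0.0542 CPM untreated and 7.06, 3.36 and 4.44 CPM after caerulein, a ratio of 157 (95% counting interval 27.9 to 6207). Of the 7 genes of the actin list with a box, 3 were called higher and 4 were not called, against 27 of 33 higher in the whole list. The smooth muscle gene Myl9 was among those not called (1.76 and 1.62 CPM untreated and 0.84, 0.78 and 0.999 CPM after caerulein, -0.95 ± 0.60, adjusted p = 0.221). A match is a run of letters and not a measured site.

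Cytosolic and mitochondrial heat shock proteins rose as a group. They refold damaged proteins, and their inducible members are switched on when the factor HSF1 binds heat shock elements. Of 32 tested 22 rose, 4 fell and 6 were not called (median 1.72), where 27% of all genes rose and 21.2% fell. With library totals 26 members of the list rose and 0 fell. Hspa8, the constitutive chaperone, stood at 128 and 149.9 CPM untreated and 1943, 2217 and 1748 CPM after caerulein (3.83 ± 0.28, adjusted p = 1.36e-06). Hspa4l, a nucleotide exchange partner, stood at 2.44 and 2.11 CPM untreated and 75.2, 76.4 and 67.7 CPM after caerulein (5.01 ± 0.21), Hsp90aa1 at 38 and 33.3 CPM untreated and 552, 670.3 and 455 CPM after caerulein (3.97 ± 0.32) and the small heat shock protein Hspb1 at 13.4 and 12.1 CPM untreated and 144, 119 and 146 CPM after caerulein (3.42 ± 0.36). The groups were apart in each. Hsf1 itself stood at 6.89 and 8.45 CPM untreated and 25.7, 19.1 and 20.4 CPM after caerulein (adjusted p = 4.68e-05). The motif GAANNTTC, read on both strands, lay in the 250 bases before the start in 10 of 35 promoters of this list, against 6.69% of all promoters. These 28.6% belonged to 9 genes, of which 6 were called higher and 1 lower, beside 22 of 32 higher in the whole list. As the list was written to hold heat shock genes, a raised share was built in and tells nothing of the response. With 25 of 32 genes matched, it describes the matched promoters only. The motif is in capitals in the 150 bases before the start of 4 risers, taken at chr17:34972157-34972306 (minus strand), chr17:34959239-34959388 (minus), chr5:135887769-135887918 (plus) and chr4:40722318-40722467 (plus).

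Hspa1a: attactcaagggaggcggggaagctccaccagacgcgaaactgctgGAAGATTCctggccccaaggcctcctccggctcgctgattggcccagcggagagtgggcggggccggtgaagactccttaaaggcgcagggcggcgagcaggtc

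Hspa1b: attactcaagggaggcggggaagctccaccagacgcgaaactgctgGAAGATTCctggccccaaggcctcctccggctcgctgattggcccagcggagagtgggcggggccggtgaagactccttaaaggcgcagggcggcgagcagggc

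Hspb1: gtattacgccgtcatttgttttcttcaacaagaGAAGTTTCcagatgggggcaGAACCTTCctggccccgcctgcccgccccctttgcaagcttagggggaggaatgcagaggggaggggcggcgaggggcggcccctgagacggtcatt

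Dnaja1: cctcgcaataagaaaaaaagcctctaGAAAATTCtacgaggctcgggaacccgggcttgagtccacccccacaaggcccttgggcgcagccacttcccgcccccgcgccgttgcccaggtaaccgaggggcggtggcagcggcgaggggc

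The windows of Hspa1a and Hspa1b were identical at 149 of 150 bases, and because these neighbouring genes are near copies, how their reads were divided between them is uncertain. Hspb1 held 2 matches. Dnaja1, a cochaperone, stood at 21.8 and 21.7 CPM untreated and 174, 162 and 137 CPM after caerulein (2.86 ± 0.31). Fkbp4, a cochaperone of steroid receptors, also held the motif but fell (81.9 and 78.4 CPM untreated and 40.9, 39.7 and 51.1 CPM after caerulein, -0.87 ± 0.19), a call that was lost with library totals (-0.24, adjusted p = 0.305).

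Targets of NRF2, the factor that answers oxidants, rose in 15 of 28 genes and fell in 5 (27% and 21.2% of all genes), with a median of 0.95. With library totals 1 of them fell. Srxn1, which repairs oxidised peroxiredoxins, stood at 2.44 and 3.57 CPM untreated and 152, 137 and 191 CPM after caerulein (5.71 ± 0.25, adjusted p = 6.12e-08). The autophagy receptor Sqstm1 stood at 105 and 99.9 CPM untreated and 1369, 1272 and 1897 CPM after caerulein (3.88 ± 0.24) and the haem-degrading enzyme Hmox1 at 2.6 and 1.84 CPM untreated and 47.3, 52 and 55.6 CPM after caerulein (4.56 ± 0.44). Gclc, the catalytic subunit that starts glutathione synthesis, stood at 11.2 and 13.6 CPM untreated and 210.0, 416 and 460.0 CPM after caerulein (4.86 ± 0.40), with caerulein mouse 1 the lowest of the treated mice but still far above the untreated ones. Slc7a11, the cystine carrier, stood at 13 and 15.4 CPM untreated and 82, 76.3 and 74.2 CPM after caerulein (2.44 ± 0.18). Gsta3, a glutathione transferase, fell (8.57 and 16.7 CPM untreated and 2.37, 3.26 and 3.05 CPM after caerulein, -2.14 ± 0.33). The letters TGACNNNGC of the antioxidant response element were in 8 of 30 promoters of this list (26.7%, 8 of the 24 genes matched out of 29) and in 10.2% of all promoters. As the list was written to hold NRF2 targets, a raised share tells nothing of the response. The share was no lower in the matched promoters of immediate early genes (11 of 36, 30.6%, 9 of the 27 genes matched) and was 17.1% in those of heat shock genes. Some genes count more than once, such as Egr2 through overlapping starts.

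The integrated stress response and the supply of amino acids for translation rose. That pathway phosphorylates the initiation factor eIF2, which slows most translation but favours ATF4 and its targets. Of 28 genes 23 rose and 1 fell (median 1.45), where 27% of all genes rose and 21.2% fell. Chac1 stood at 51.9 and 49.1 CPM untreated and 1815, 1153 and 1536 CPM after caerulein (4.89 ± 0.49), Nupr1 at 1034 and 968 CPM untreated and 6246, 5917 and 5078 CPM after caerulein (2.52 ± 0.34) and Atf4 at 116 and 124 CPM untreated and 526, 509 and 485 CPM after caerulein (2.08 ± 0.28). Ppp1r15a, which dephosphorylates eIF2, stood at 8.32 and 10.2 CPM untreated and 106, 90.2 and 102 CPM after caerulein (3.41 ± 0.19), and the mTOR inhibitors Ddit4 and Sesn2 at 3.59 ± 0.31 and 3.49 ± 0.31. All treated libraries were above the untreated ones in these genes. Trib3, a pseudokinase that dampens ATF4, stood at 7.65 and 7.47 CPM untreated and 155, 111 and 163 CPM after caerulein (4.24 ± 0.54). Ddit3, the death-linked factor CHOP, was not called (6.55 and 6.88 CPM untreated and 15.3, 5.41 and 9.88 CPM after caerulein, 0.60 ± 0.52, adjusted p = 0.371) and its libraries overlapped, and Cbs, an enzyme of cysteine synthesis, fell (238 and 240.0 CPM untreated and 135, 138 and 142 CPM after caerulein, -0.79 ± 0.18), though not with library totals (-0.17, adjusted p = 0.338), under which no gene of this list fell.

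Genes that build and load ribosomes moved with it, where 27% of all genes were higher. Cytosolic tRNA synthetases rose in 18 of 23, the other 5 not being called (median 1.00), for instance Iars (40 and 36.8 CPM untreated and 165, 142 and 145 CPM after caerulein, 1.97 ± 0.20) and Rars (18.1 and 14.5 CPM untreated and 81.7, 58.1 and 74.5 CPM after caerulein, 2.14 ± 0.22). Ribosome biogenesis factors rose in 28 of 35, with 7 not called (median 1.45). The nucleolar proteins Nop58 (11.8 and 10.4 CPM untreated and 93.2, 89.7 and 83.1 CPM after caerulein, 3.00 ± 0.17, adjusted p = 2.55e-07) and Rrp12 (4.62 and 4.33 CPM untreated and 33.2, 40.5 and 35.1 CPM after caerulein, 3.02 ± 0.18) had the smallest p, and their groups were well apart. Translation initiation and elongation factors rose in 22 of 25 (median 1.16), led by Eif1a (17.5 and 16.4 CPM untreated and 129, 133 and 124 CPM after caerulein, 2.93 ± 0.16) and Eif5 (106 and 93.6 CPM untreated and 501, 471 and 437 CPM after caerulein, 2.24 ± 0.16). The ribosomal proteins themselves did not move in this way: 1 of 35 was called higher and 34 were not called, with a median of 0.18, but with library totals all 35 were called higher, so their direction rests on the scaling. Myc, a driver of ribosome synthesis, stood at 13.2 and 14.9 CPM untreated and 69.4, 56.7 and 71.4 CPM after caerulein (2.22 ± 0.18, adjusted p = 2.63e-06).

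Chaperones of the endoplasmic reticulum split. Of 32 folding and translocation genes 15 fell (21.2% of all genes were lower), 5 rose (27% were higher) and 12 were not called. The median of -0.36 became 0.25 with library totals, under which 4 fell and 12 rose, and without untreated mouse 2 or 3 the number that fell was 9 and 9. Hspa5, the central chaperone of this compartment, stood at 349 and 314 CPM untreated and 1913, 1765 and 1878 CPM after caerulein (2.48 ± 0.23, adjusted p = 7.07e-06). The oxidase Ero1l (1.47 ± 0.17) and the channel subunit Sec61a1 (1.24 ± 0.17) rose too, whereas the Hspa5 partner Dnajb11 fell (88 and 85.3 CPM untreated and 35.6, 30.9 and 38 CPM after caerulein, -1.31 ± 0.19). Among stress sensors and degradation genes 9 of 20 fell and 7 rose (median 0.17). Without untreated mouse 2, 5 fell, and with library totals 4 fell and 11 rose. The sensors Ern1 (47 and 50.3 CPM untreated and 212, 198 and 176 CPM after caerulein, 2.01 ± 0.21) and Eif2ak3 (64 and 67.1 CPM untreated and 315, 295 and 187 CPM after caerulein, 2.02 ± 0.26) were both higher. Sel1l, the scaffold of the degradation complex, went from 614 and 672 to 128, 94.7 and 109 CPM (-2.54 ± 0.24, adjusted p = 8.19e-06). Every treated mouse therefore had more sensor and less Sel1l transcript than either untreated mouse.

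Epithelial structure genes rose. Of 21 keratins, plakins and desmosome genes 17 rose and 1 fell (27% and 21.2% of all genes), with a median of 2.61. Krt8 stood at 101 and 96.8 CPM untreated and 6660.3, 6894 and 6429 CPM after caerulein (6.07 ± 0.34, adjusted p = 2.63e-07) and its partner Krt18 at 89.6 and 81 CPM untreated and 2702, 2812 and 2661 CPM after caerulein (5.00 ± 0.33). Plec, which ties keratin to junctions, stood at 35 and 36.1 CPM untreated and 525, 532 and 580.3 CPM after caerulein (3.94 ± 0.20), and Eppk1, another plakin picked after its value was seen, at 1.09 and 1.35 CPM untreated and 183, 203 and 155 CPM after caerulein (7.18 ± 0.29). The ductal keratin Krt19 stood at 9.49 and 7.75 CPM untreated and 88.4, 86.2 and 121 CPM after caerulein (3.52 ± 0.47) and the intestinal keratin Krt20 at 0.084 and 0 CPM untreated and 4.47, 6.87 and 4.33 CPM after caerulein, a ratio of 158 (95% counting interval 28.1 to 6244). Krt20 was nearly absent before treatment, and none of the 6 overlapped between groups.

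Junction genes went in both directions. Of 25 claudins, cadherins and tight junction genes 16 rose and 4 fell (median 2.01), the latter being 2 with library totals or without either untreated mouse. E-cadherin, Cdh1, stood at 62.5 and 52.3 CPM untreated and 1197, 1217 and 1065 CPM after caerulein (4.34 ± 0.30, adjusted p = 9.50e-07). The claudin Cldn4 stood at 0.588 and 2.06 CPM untreated and 37.6, 62.1 and 33.6 CPM after caerulein (4.96 ± 0.51), whereas Cldn8 (20.3 and 14.9 CPM untreated and 1.07, 0.682 and 0.555 CPM after caerulein, -4.48 ± 0.31) and Cldn10 (36.5 and 30.1 CPM untreated and 8.51, 5.17 and 6.83 CPM after caerulein, -2.28 ± 0.25) fell. The groups were apart in all 3 claudins. Injury, adhesion and metaplasia genes rose in 17 of 32 and fell in 3 (median 1.42), with 1 lower under library totals. The laminin receptor Itga6 stood at 27.1 and 28.4 CPM untreated and 193, 230.0 and 271 CPM after caerulein (3.06 ± 0.17), the growth factor receptor Met at 12.1 and 13.8 CPM untreated and 54.5, 57.7 and 49.5 CPM after caerulein (2.06 ± 0.15) and the receptor kinase Epha2 at 1.01 and 0.65 CPM untreated and 36.8, 35.6 and 51.6 CPM after caerulein (5.68 ± 0.52). The ductal factor Sox9 stood at 10.8 and 12.2 CPM untreated and 28.8, 33.4 and 33.4 CPM after caerulein (1.46 ± 0.30). The mucosal peptide Tff2 fell (1954 and 2012 CPM untreated and 655, 679 and 625 CPM after caerulein, -1.60 ± 0.24). Of 11 duct cell markers tested, 3 were higher (Krt19, Krt7 and Sox9), 1 was lower (Muc1) and 7 were not called. Of all genes, 27% were higher and 21.2% lower. In CPM of library totals, the summed level of the markers was 216.7 and 175.2 untreated against 300.4 to 426.3 after caerulein. On that scale the median log2 fold change of all genes was higher by 0.619 than under TMM. The part of duct cells in these changes was not tested.

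Lif, Stat3 and Socs3 of the interleukin-6 pathway rose, while the classical inflammatory cytokines were near the limit of detection. Of 21 genes of the interleukin-6 family and STAT3 feedback, 12 rose and 2 fell. Besides Lif, the factor Stat3 stood at 25.4 and 29.9 CPM untreated and 102, 118 and 115 CPM after caerulein (2.01 ± 0.16, adjusted p = 2.81e-06) and its feedback inhibitor Socs3 at 1.51 and 4.55 CPM untreated and 27.6, 38.1 and 56.1 CPM after caerulein (3.67 ± 0.58). Il6 had no untreated reads and 0.0764, 0.244 and 0.333 CPM after caerulein and was not called (adjusted p = 0.0679), but was without young caerulein mouse 3 (adjusted p = 0.0427) and with library totals (adjusted p = 0.0452). In the interleukin-1 and tumour necrosis factor families 6 of 17 rose, 2 fell and 9 were not called (27% of all genes were higher). Groups were apart upward for 11 of these 17 and downward for 3 (37.8% and 33.4% of all genes). A fit to the 18-month libraries alone called 10 of 13 higher and 3 lower, where 4000 of all 12737 genes were higher. Dropping young untreated mouse 2 gave 8 higher and 3 lower of 17. The number that fell was 0 with library totals, with the block, or without untreated mouse 2, untreated mouse 3, caerulein mouse 1 or caerulein mouse 3, and 4 rose without untreated mouse 3. Tnfrsf12a, the receptor Fn14, stood at 3.02 and 2.55 CPM untreated and 234, 211 and 231 CPM after caerulein (6.35 ± 0.22) and the receptor Tnfrsf1a at 18.3 and 15.3 CPM untreated and 68.7, 78.6 and 73.7 CPM after caerulein (2.13 ± 0.15). The cytokine Il1b was at 0 and 0 CPM untreated and 0.153, 0.0975 and 0.111 CPM after caerulein (adjusted p = 0.233) and Tnf at 0 and 0 CPM untreated and 0.382, 0 and 0.0555 CPM after caerulein (adjusted p = 0.238). The receptors were thus read in all 5 mice, and Il1b and Tnf in neither untreated mouse.

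Chemokines, which draw white blood cells, were low in level, and part of them rose, against 27% higher and 21.2% lower of all genes. Of 20 tested 10 rose and 2 fell (0 with library totals), and 6 rose without untreated mouse 2 and 6 without mouse 3. The monocyte chemokine Ccl2 had no untreated reads and 4.28, 6.58 and 5.99 CPM in treated mice, which was at least 55.5-fold higher (adjusted p = 3.42e-04). Ccl9 stood at 0.756 and 1.03 CPM untreated and 14.5, 22.7 and 19.5 CPM after caerulein (4.36 ± 0.53) and Ccl6 at 2.1 and 1.73 CPM untreated and 15.9, 19 and 22.6 CPM after caerulein (3.33 ± 0.50). The neutrophil chemokines Cxcl1 (0 and 0 CPM untreated and 0.649, 1.32 and 0.333 CPM after caerulein, a fold of at least 7.82, adjusted p = 0.0471) and Cxcl2 (0 and 0 CPM untreated and 0.993, 0.633 and 0.0555 CPM after caerulein, a fold of at least 6.25, adjusted p = 0.0261) were called. The Cxcl2 call was lost without untreated mouse 2 (adjusted p = 0.0927), untreated mouse 3 (adjusted p = 0.132) or caerulein mouse 1 (adjusted p = 0.0638), and that of Cxcl1 without any 1 of the 5 mice at 18 months or young caerulein mouse 1, with adjusted p from 0.0506 to 0.191. Cxcl12, a homing chemokine of stroma, fell (19.3 and 19 CPM untreated and 5.38, 5.07 and 6.49 CPM after caerulein, -1.76 ± 0.39), a call that was lost with library totals. Of 27 NF-kB genes 8 rose and 1 fell (median 1.33), a share of risers near the 27% of all genes, but that share hung on the fit. The number that rose was 15 without young untreated mouse 2, 11 by DESeq2 and 3 with a minimum fold of 2. In the 5 libraries of 18 months alone 16 of 25 rose, where 4000 of all 12737 genes did. Libraries did not overlap for 22 of 27 upward (37.8% of all genes) and 2 downward (33.4%). The subunit Rela stood at 17.8 and 16.6 CPM untreated and 187, 190.5 and 194 CPM after caerulein (3.47 ± 0.15, adjusted p = 5.48e-08), while the inhibitor Nfkbia was not called (6.81 and 6.93 CPM untreated and 10.7, 11.9 and 9.66 CPM after caerulein, 0.64 ± 0.43, adjusted p = 0.25). Nfkbia was called higher with no filter, in the 5 libraries of 18 months alone, and when young untreated mouse 2 was left out (0.58, adjusted p = 0.0217).

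White blood cell markers were low in level. In CPM of library totals, neutrophil markers summed to 0.134 and 0.113 CPM in untreated mice and to 1.41, 1.74 and 1.62 CPM in treated mice, 0 of 6 tested were called (by edgeR or by DESeq2, with 0 at an unadjusted p below 0.05), and 5 of the 12, Ly6g, Elane, Ngp, Camp and Ltf, had no reads in any of the 5 mice. Macrophage and monocyte markers went from 59.0 and 45.9 to 98.3, 123.3 and 143.5 CPM. On that scale the median log2 fold change of all genes was higher by 0.619 than under TMM. Of these markers 4 of 14 were called higher, near the 27% of all genes, and 10 were not called. In TMM-scaled CPM, Cd14 stood at 1.01 and 1.08 untreated and 16.6, 23.6 and 15.3 after caerulein (4.13 ± 0.40). T cell and NK cell markers lay between 1.30 and 2.53 CPM in all 5. B cell and plasma cell markers went from 19.6 and 29.6 to between 68.9 and 85.6 CPM, where 1 of 4 tested was called, Sdc1 (11.4 and 10.2 CPM untreated and 41.4, 27.6 and 37.9 CPM after caerulein, 1.72 ± 0.20), a proteoglycan that epithelia also make. The part of white blood cells in the cytokine results was not tested. Interferon-stimulated genes (2 of 27 higher and 25 not called, median -0.10, 0.50 with library totals) and MHC class II genes (0 of 7 called by edgeR or by DESeq2, 0 at an unadjusted p below 0.05) were below the share of all genes called.

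**Figure D3:**
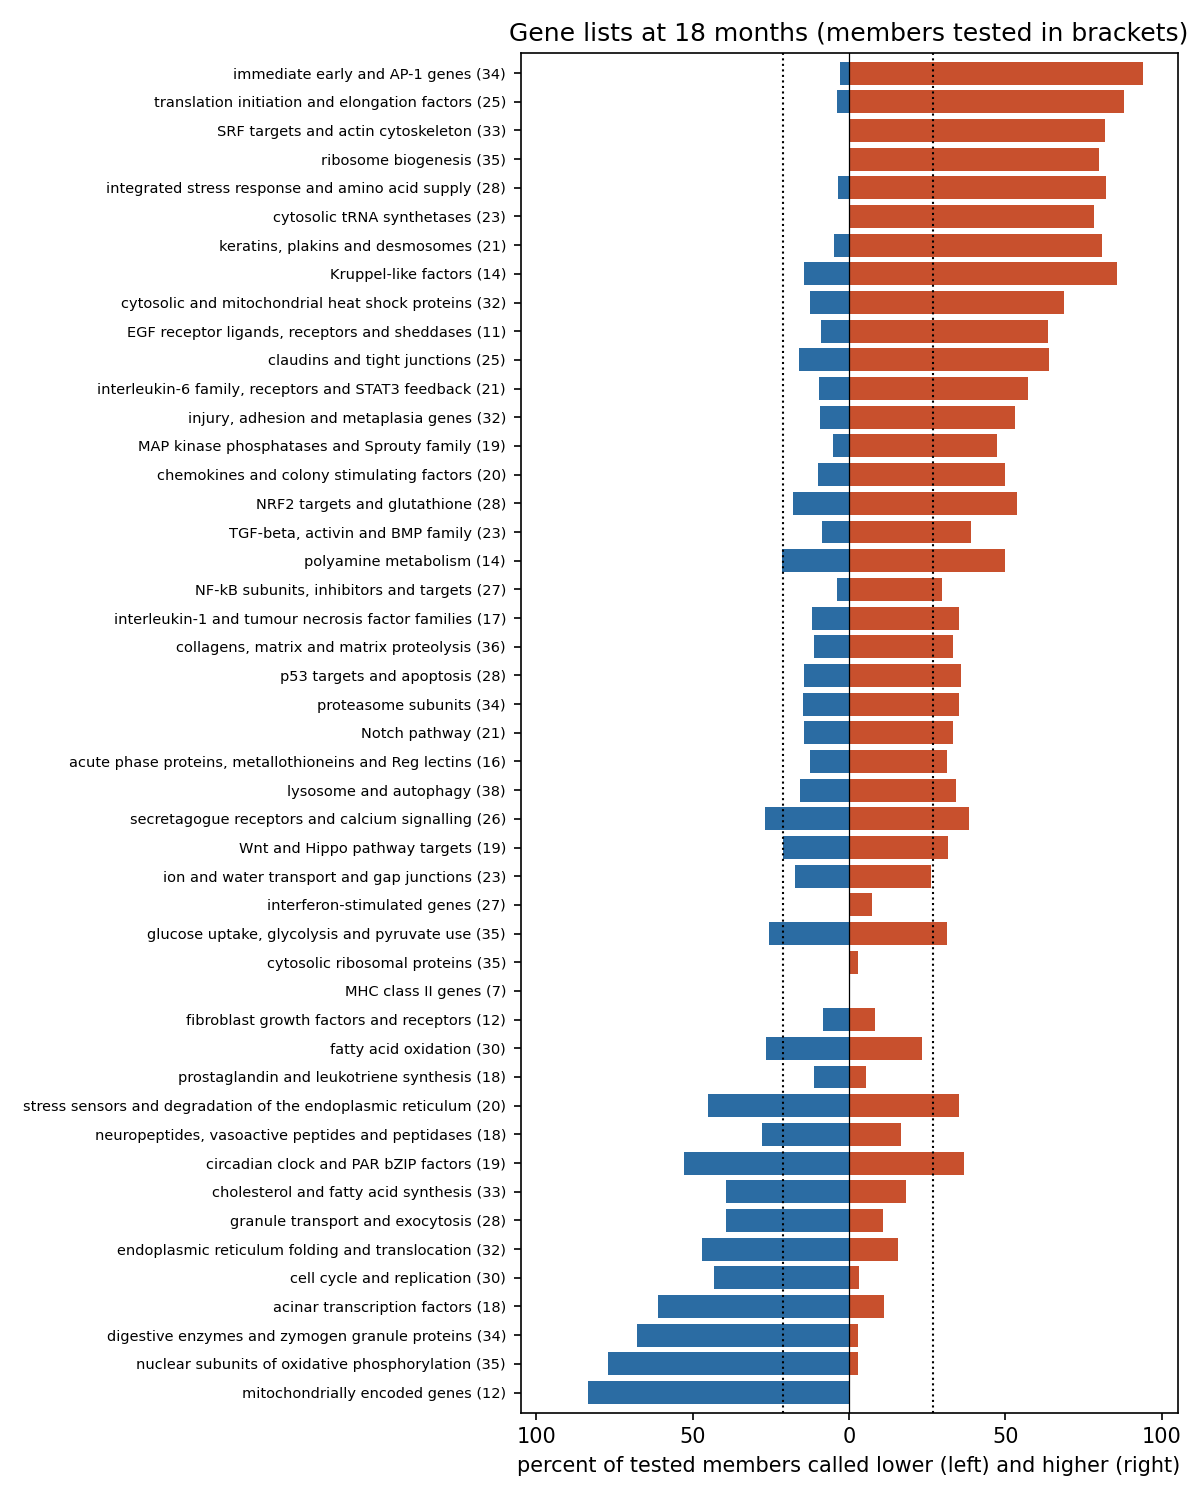
For each of 47 gene lists, with the number of members tested in brackets, the red bar is the percent of members called higher and the blue bar the percent called lower at 18 months; dotted lines mark the same shares over all genes, 27% and 21.2%. Immediate early genes stand at the top with 32 of 34 higher, and mitochondrially encoded genes at the foot with 10 of 12 lower.

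Circadian clock genes moved in both directions. In the clock's feedback loop, Clock, Npas2 and Arntl activate the Per and Cry repressors and the output factors Dbp and Tef, and Nfil3 opposes Dbp at shared sites. Of 19 tested 10 fell and 7 rose (median -0.93), where 21.2% of all genes fell and 27% rose. Nfil3, Dbp, Tef and Per3 were named by rule, and the other clock genes given here were picked after their values were seen. Of the activators, Arntl stood at 0.336 and 0 CPM untreated and 14.3, 14.3 and 10.9 CPM after caerulein (6.54 ± 0.94, adjusted p = 1.74e-04), Npas2 at 0 and 0.108 CPM untreated and 8.29, 6.24 and 6.22 CPM after caerulein, a ratio of 107 (95% counting interval 29.5 to 888), and Clock at 16.6 and 10.9 CPM untreated and 30.5, 29 and 23.5 CPM after caerulein (1.02 ± 0.20). Nfil3 stood at 1.43 and 0.758 CPM untreated and 281, 190.5 and 239 CPM after caerulein (7.82 ± 0.44). These were higher in every treated mouse. Of the repressors, Per2 stood at 22.9 and 29.1 CPM untreated and 2.1, 2.97 and 3.77 CPM after caerulein (-3.16 ± 0.29), beside Per3 given above, and Cry2 fell (-1.30 ± 0.22) while Cry1 rose (4.87 and 10 CPM untreated and 15.4, 18 and 16.3 CPM after caerulein, 1.13 ± 0.28, adjusted p = 0.00652), a call that was lost without untreated mouse 2 (0.74, adjusted p = 0.0678). The hour of the day at which each mouse was sampled is not given in the sources used here, and its part in these values was not tested.

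**Figure D4:**
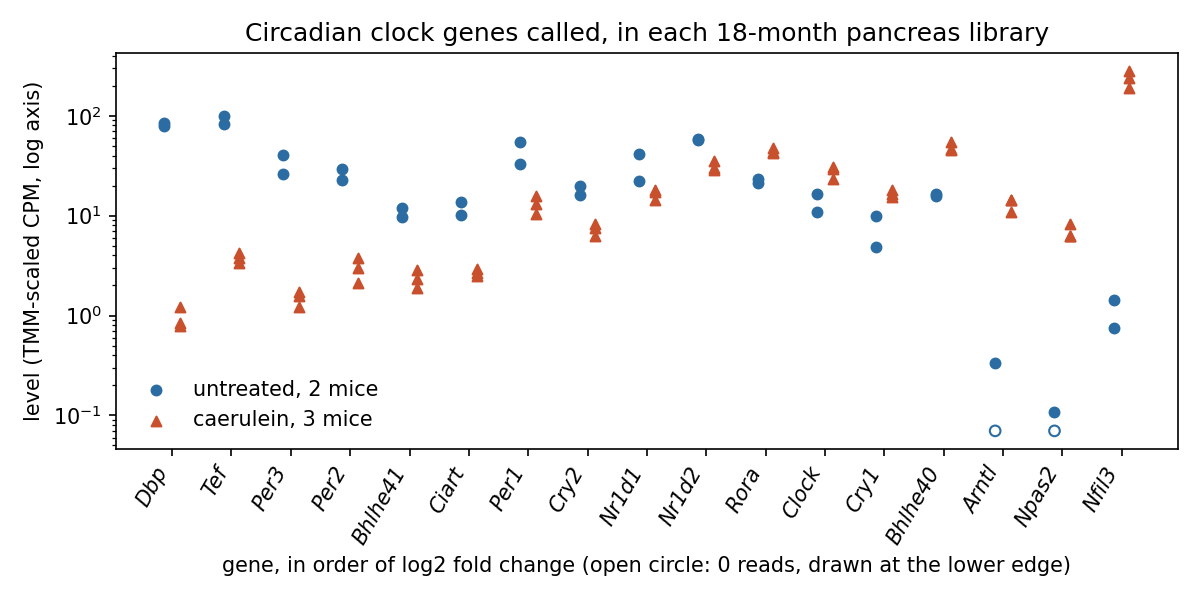
Levels of the clock genes called higher or lower, in TMM-scaled CPM on a log axis, in the 2 untreated (circles) and 3 caerulein mice (triangles) at 18 months, ordered from the largest fall (Dbp) to the largest rise (Nfil3); 2 genes had 0 reads in 1 untreated mouse, drawn as open circles at the lower edge. The symbols cross over from left to right, and the groups do not overlap for any gene drawn.

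Energy metabolism genes were mostly lower on this scale, where 21.2% of all genes were. Nuclear subunits of oxidative phosphorylation fell in 27 of 35 and rose in 1 (median -0.69), and mitochondrially encoded genes fell in 10 of 12, with 2 not called (median -0.90). With library totals 5 and 4 fell and the medians were -0.10 and -0.29, and without untreated mouse 3 6 mitochondrially encoded genes fell. The complex IV subunit Ndufa4 stood at 27.6 and 29.6 CPM untreated and 12.1, 13.2 and 12.7 CPM after caerulein (-1.18 ± 0.11), the succinate dehydrogenase subunit Sdhb at 50.7 and 50.6 CPM untreated and 20, 21 and 22.2 CPM after caerulein (-1.27 ± 0.15) and the complex I subunit mt-Nd1 at 937 and 954 CPM untreated and 441, 394 and 364 CPM after caerulein (-1.24 ± 0.17). Each had non-overlapping libraries. Cycs, the electron carrier cytochrome c, was the nuclear member that rose (15 and 16.4 CPM untreated and 31, 26.6 and 28.2 CPM after caerulein, 0.87 ± 0.15).

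Lipid and sugar genes changed member by member. Of 33 genes of cholesterol and fatty acid synthesis 13 fell and 6 rose (21.2% and 27% of all genes), and their median of -0.40 became 0.24 with library totals, with 8 lower. Scd2 and the desaturase Fads1 (32.1 and 43.9 CPM untreated and 4.73, 5.46 and 6.55 CPM after caerulein, -2.77 ± 0.26) fell, and so did the sterol sensor Insig1 (71.7 and 89.2 CPM untreated and 27.3, 27.5 and 31.4 CPM after caerulein, -1.49 ± 0.17). Msmo1, an enzyme of cholesterol synthesis, rose (3.53 and 4.6 CPM untreated and 20.6, 21.6 and 21.2 CPM after caerulein, 2.36 ± 0.16). Among 35 genes of glucose uptake, glycolysis and pyruvate use 11 rose and 9 fell (median 0.09), near the 27% and 21.2% of all genes, with 5 lower without untreated mouse 2 and 2 with library totals. The glucose transporter Slc2a1 stood at 4.96 and 5.58 CPM untreated and 36.3, 42.5 and 47.6 CPM after caerulein (2.99 ± 0.29). Regulators of pyruvate use moved apart: the dehydrogenase kinase Pdk4, an inhibitor, stood at 0.672 and 0.217 CPM untreated and 18.3, 21.1 and 14.2 CPM after caerulein (5.45 ± 0.62) and the phosphatase Pdp2, an activator, at 5.21 and 5.74 CPM untreated and 0.267, 0.195 and 0.111 CPM after caerulein (-4.76 ± 0.41). In both genes the groups were apart. Fatty acid oxidation genes fell in 8 of 30 and rose in 7, near the shares of all genes, with the regulator Ppara at 3.53 and 4.44 CPM untreated and 0.611, 0.633 and 0.444 CPM after caerulein (-2.81 ± 0.35). Those counts were 5 lower without untreated mouse 2, 4 higher without mouse 3, and 2 and 13 with library totals.

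Part of the cell division genes fell after caerulein, while Cdkn1a, a brake on division, rose. Of 30 cell cycle and replication genes 13 fell and 1 rose (21.2% and 27% of all genes), with a median of -1.24, and 5 fell with library totals. The licensing factor Mcm2 stood at 11.5 and 14.9 CPM untreated and 1.53, 2.58 and 2.39 CPM after caerulein (-2.62 ± 0.25, adjusted p = 8.13e-06) and the cyclin Ccnd3 at 20.7 and 18.5 CPM untreated and 8.59, 7.55 and 8.55 CPM after caerulein (-1.25 ± 0.14). Mki67, present in dividing cells, was not called (0.252 and 0.65 CPM untreated and 0, 0.146 and 0.0555 CPM after caerulein, -2.78 ± 1.15, adjusted p = 0.0668), but was without young untreated mouse 2 (-2.85, adjusted p = 0.0108) or 3 (-2.80, adjusted p = 0.0497) and by DESeq2 (-2.91, adjusted p = 0.0249). Of 28 p53 targets and apoptosis genes 10 rose and 4 fell (median 0.61), where 27% and 21.2% of all genes rose and fell. With library totals 2 of them fell. Cdkn1a, which inhibits cyclin-dependent kinases, stood at 2.86 and 3.03 CPM untreated and 422, 346 and 393 CPM after caerulein (7.03 ± 0.28, adjusted p = 4.81e-08). The survival factor Bcl2l1 stood at 5.13 and 4.77 CPM untreated and 136, 158 and 126 CPM after caerulein (4.83 ± 0.25) and the stress sensor Gadd45a at 0.42 and 0.379 CPM untreated and 54.8, 24.3 and 41.4 CPM after caerulein (6.64 ± 0.51), against a fall of the mTOR inhibitor Sesn1 (17.5 and 23.2 CPM untreated and 4.62, 4.97 and 3.83 CPM after caerulein, -2.19 ± 0.28). Every treated mouse lay far above the untreated ones for Cdkn1a. The senescence-linked inhibitor gene Cdkn2a had too few reads to be tested.

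The same treatment at 7 weeks shared its direction at nearly every called gene, and few differences between the ages passed a test. Of the 6804 genes called at 18 months, 6650 had the same sign at 7 weeks. The difference between the responses (18 months minus 7 weeks) was called for 2 of 14113 genes (0.0142%, with 1 larger and 1 smaller at 18 months, 0.00709% each) by edgeR's quasi-likelihood test, with 1758 at an unadjusted p below 0.05. Atp6v1b2 (ENSMUSG00000006273, chromosome 8, 69088646 to 69113711), a subunit of the proton pump that acidifies lysosomes and granules, stood at 19.2 and 17.9 CPM untreated and 105, 139 and 128 CPM after caerulein at 18 months and at 19.3, 20.3 and 19.6 CPM untreated and 36.4, 43.5 and 40.6 CPM after caerulein at 7 weeks. Its untreated levels were alike at both ages, and the treated ones did not overlap. Its log2 fold changes were 2.74 ± 0.15 and 1.02 ± 0.13, a difference of 1.71 ± 0.19, adjusted p = 0.0159. Dtx4 (ENSMUSG00000039982, chromosome 19, 12466341 to 12501996), a Deltex ubiquitin ligase of the Notch pathway, stood at 14.4 and 11.4 CPM untreated and 21.8, 22.8 and 18.5 CPM after caerulein at 18 months and at 10.7, 10.8 and 11 CPM untreated and 55.9, 56.1 and 68.5 CPM treated at 7 weeks, so that its response was the smaller at 18 months (0.71 ± 0.15 against 2.47 ± 0.14, a difference of -1.76 ± 0.20, adjusted p = 0.0159). Both calls were lost without young caerulein mouse 1 or 3, either aged untreated mouse, or aged caerulein mouse 2 or 3, and with mouse number as a block (adjusted p = 0.0786 for each), with adjusted p up to 0.614 over the alternatives.

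The number of such genes rose to 311 of 13567 (2.29%) when young untreated mouse 2, the library with lymphoid and fat transcripts, was left out, with 201 larger (1.48%) and 110 smaller (0.811%) at 18 months. Of the 8 with the smallest p in each direction, the desmosomal protein gene Kazn led the larger ones (18 months 1.02, 7 weeks -0.84, difference 1.87 ± 0.19), then Atp6v1b2, Plec (1.31 ± 0.15), Sec24d (1.15 ± 0.14), Sgms2, a sphingomyelin synthase (1.51 ± 0.18), Dstn (1.12 ± 0.14), Cpt1a, which admits fatty acids to mitochondria (1.16 ± 0.15), and Plcxd2 (1.63 ± 0.22). Led by Dtx4, the smaller ones were Plekhh3 (-1.61 ± 0.22), the threonine dehydrogenase Tdh (-2.03 ± 0.28), Rsrp1 (-1.47 ± 0.21), Cep85 (-2.07 ± 0.29), Depdc7 (-2.40 ± 0.38), the receptor partner Ramp1 (-0.89 ± 0.14) and Epn3 (-1.22 ± 0.20). Cep85 had a log2 fold change of 0.87 at 18 months and 2.94 at 7 weeks. By list, the endoplasmic reticulum folding genes held 12 of 32 members with a larger value at 18 months and none of the other 20 was called (1.48% of all genes were larger). The median difference of that list was 0.40. It was not alone: 4 of 16 acute phase genes (Mt1, Reg2, Reg3b and Reg3d, median 0.67) and 3 of 14 Kruppel-like factors (median 0.46) were larger and 0 smaller. Of 25 junction genes 3 were smaller (Cldn3, Cldn4 and Cldn7) and 0 larger. In this fit Hspa5 had a log2 fold change of 2.42 at 18 months and 1.41 at 7 weeks (difference 1.01 ± 0.16, adjusted p = 0.00752). Hsp90b1, the chaperone Grp94, had 0.43 and -0.71 (1.15 ± 0.17), the disulphide isomerase Pdia4 -0.85 and -2.14 (1.28 ± 0.24), and Sdf2l1 -1.01 and -2.32 (1.31 ± 0.18). Pdia4 and Sdf2l1 thus had the smaller negative value at 18 months and Hspa5 the larger positive one. With all 11 libraries edgeR called 0 of the 32 folding genes (9 at an unadjusted p below 0.05) and DESeq2 called 6 larger and 0 smaller, so the number rests on young untreated mouse 2 and on the tool.

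**Figure D5:**
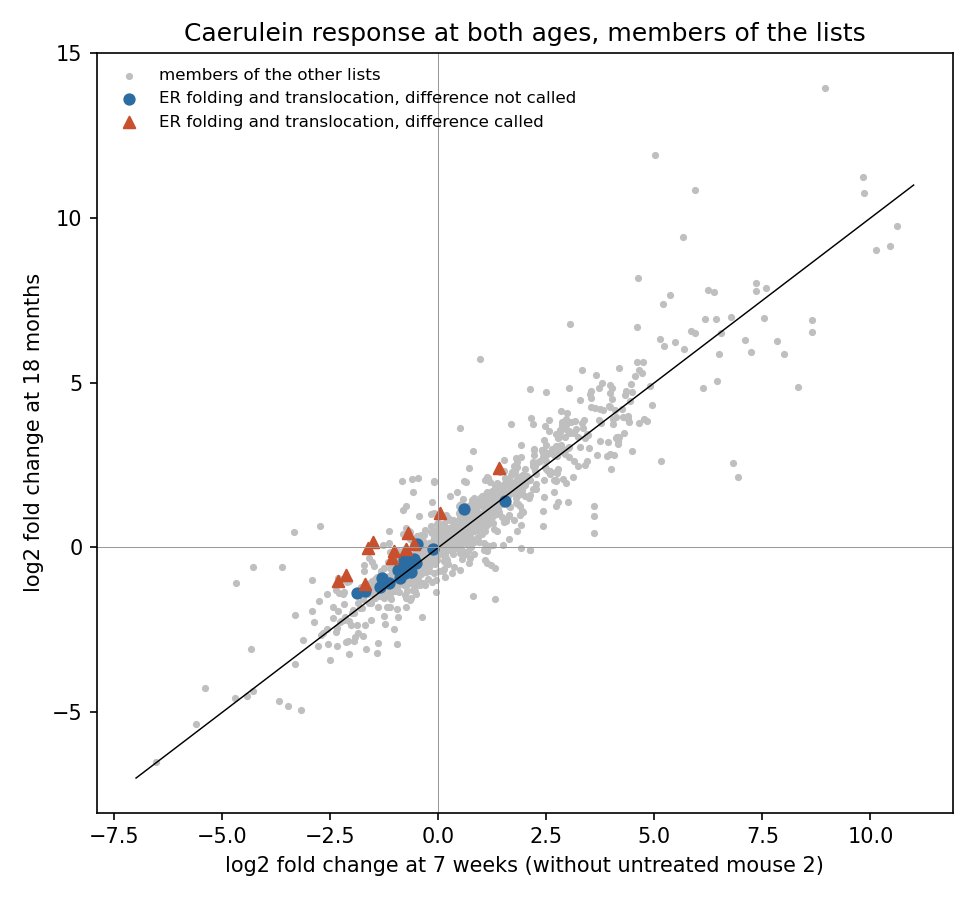
Log2 fold changes after caerulein at 7 weeks (x axis, without young untreated mouse 2) and at 18 months (y axis) for members of the gene lists; the line marks equal responses. The 12 endoplasmic reticulum folding genes whose difference was called without that mouse (triangles) all lie above the line, and so do some of the other 20 of that list (circles), among them Sec61a1 with a difference of 0.57 ± 0.16 (adjusted p = 0.0779), near the 0.60 ± 0.14 of the called oxidase gene Ero1lb.

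In the authors' deposited table of the same comparison, 3735 genes had an adjusted p below 0.05 with a positive and 2907 with a negative log2 fold change, of 21120 listed. Of the 6804 genes called here, 6125 were called there in the same direction and 0 in the opposite one, and 679 stood in the authors' deposited table at an adjusted p of 0.05 or more.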

How the data were processed

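Bulk pancreas RNA of 11 mice was sequenced as poly(A) libraries with paired reads of 150 bases, per the labels' protocols. The deposited values are raw counts per gene. Per the submitters' processing notes the authors used HISAT2 2.0.5, featureCounts 1.5.0-p3 and the mm10 build; neither the annotation release nor the strand setting is given in the sources used here. The authors' deposited tables of comparisons hold a log2 fold change and an adjusted p-value per gene, per the file headers, and were read only for the last paragraph of the results.

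Genes were kept with filterByExpr, scaled by TMM and fitted with edgeR 4.0.16 (R 4.3.3, limma 3.58.1) in 1 model of 4 groups over all 11 libraries, with the quasi-likelihood F test and Benjamini-Hochberg adjustment over all 14113 genes at a threshold of 0.05. Contrasts were caerulein against untreated at 18 months and its difference from the same contrast at 7 weeks. Standard errors are the fold change over the root of F. Promoters and their coordinates are from RefSeq on GRCm38.p6. A fold against 0 reads was set against 3 counts summed over the group, and ratios with 1 to 3 counts carry exact 95% intervals. Intervals and floors cover counting error only, and reads carry no molecular identifiers. No pair of replicate libraries was alike within sampling noise (chi-square per degree of freedom 23.5 to 31.9 within the 18-month groups).

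Named genes were the 8 largest called log2 fold changes in each direction and the 8 largest gains and losses per kb, with at least 20 CPM in the higher group, libraries that did not overlap and no predicted, pseudogene or antigen receptor names; the 4 members of lowest p in each of 47 gene lists (1263 of 1264 symbols found) and the top member against the list's direction; up to 8 genes with the smallest p per direction for the difference, at 5 CPM or more; and a fixed set given whether called or not, such as Il6, Ddit3 and Ptf1a. Some genes the rule names are not reported here. Other genes named were chosen after their values were seen. The members and lists were chosen with earlier results of these data known. On simulated counts of 13598 genes, 34 of 100 genes changed 2-fold and 74 of 100 changed 4-fold were recovered at 18 months, with 2 unchanged genes called. For the difference between the ages 10 and 57 of 100 were recovered, with 6 unchanged genes called. Only these few genes were changed in the simulation, whereas 48.2% of genes were called in the data. The adjustment of p was thus stricter there, and the shares do not give the sensitivity of the comparison at 18 months. Alternatives covered the filter, the scaling, DESeq2 1.42.0, a minimum fold of 2, a block, the 5 libraries of 18 months alone, the omission of each library and, chosen after seeing the data, a robust estimate of the spread.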

Additional observations from a re-analysis of the deposited data

Results flagged for a closer look

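The responses at the 2 ages differed for 2 genes by the test of the difference itself in the edgeR model. For Atp6v1b2 the log2 fold change was larger at 18 months by 1.71, and for Dtx4 the difference was -1.76. With untreated mouse 3 of 18 months left out the values were 1.66 (adjusted p = 0.32) for Atp6v1b2 and -1.92 (adjusted p = 0.0769) for Dtx4, and by DESeq2 they were 1.71 (adjusted p = 2.80e-11) and -1.76 (adjusted p = 1.64e-09).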

How the results depend on the processing

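The number of genes called at 18 months was 5319 with a stricter filter (8307 genes tested), 6398 with no filter, 6798 with DESeq2's size factors, 6730 by DESeq2 and 7716 from the 5 libraries of 18 months alone. Library totals gave 5451 higher and 1074 lower, and a minimum fold of 2 gave 1565 higher and 818 lower. Over the omission of each library, the genes higher ranged from 2925 (without untreated mouse 3) to 4164 (without young untreated mouse 2) and those lower from 1970 (without untreated mouse 3; 1977 without mouse 2) to 3748 (without young untreated mouse 2). With mouse number as a block, 5534 were called, 5402 of them among the 6804 in the same direction. The numbers are shared only as labels of different mice: the deviations of same-numbered mice correlated at 0.005 and 0.13 at 18 months and at 0.106, 0.149 and 0.114 at 7 weeks. Of 283 named genes, 273 kept their side of the threshold under the block and 10 lost their call. For the difference between the ages (1 higher, 1 lower), the counts were 31 and 24 with a stricter filter, 547 and 127 with none, 171 and 79 by DESeq2, 4 and 5 with a robust spread, 1 and 0 with the block (neither of the 2 genes), and 0 and 0 with library totals or a minimum fold of 2. Leaving out a library gave 0 to 201 higher (201 without young untreated mouse 2) and 0 to 110 lower (110 without it). The cause was not tested. The enzyme share difference of -18.4 points was -52.1 with TMM-scaled library sizes as denominator, which is a different total by construction, -17.9 without granule proteins, and -19.5 to -17.3 over the omission of each mouse. Signs turned for uncalled or small changes: H2-Eb1 -0.02 with a stricter filter; Ptf1a 0.56, Spink1 0.26, Fgfr3 0.06, H2-DMa 0.47 and Stat2 0.02 with library totals; and Ptf1a 0.09 without untreated mouse 2, 0.03 without caerulein mouse 1 and 0.10 without caerulein mouse 3 (its range over single omissions being -0.29 to 0.10). Depth and 2 untreated mice limit the least abundant genes.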

Other observations

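Growth factor families outside the epidermal one moved member by member at 18 months, with levels again in TMM-scaled CPM and the log2 fold change and its standard error in brackets. In the TGF-beta, activin and BMP family 9 of 23 genes rose and 2 fell (median 0.50, against 0.07 over all genes). The BMP antagonist Sostdc1 went from 22.1 and 16.6 to 0.878, 0.146 and 0.333 CPM (-5.32 ± 0.41), and the signal transducer Smad3 from 11.8 and 14.8 to 32.8, 43.7 and 42.3 CPM (1.57 ± 0.19). The activin subunit Inhbb stood at 1.43 and 1.19 CPM untreated and 12.1, 9.94 and 9.94 CPM after caerulein (3.03 ± 0.42), so an antagonist fell while a ligand subunit and a transducer rose in every treated mouse. Of 19 Wnt and Hippo genes 6 rose and 4 fell (median 0.52), near the 27% and 21.2% of all genes. With library totals these counts were 8 and 1, and 2 fell without untreated mouse 3. The Hippo effector Yap1 stood at 21.1 and 17.4 CPM untreated and 65.3, 62 and 58.1 CPM after caerulein (1.68 ± 0.17) and its DNA-binding partner Tead1 at 16.1 and 19.8 CPM untreated and 63.8, 77.5 and 69.3 CPM after caerulein (1.96 ± 0.24), while the Wnt target Axin2 stood at 2.35 and 3.47 CPM untreated and 0.191, 0.536 and 0.444 CPM after caerulein (-2.91 ± 0.42). In the Notch pathway 7 of 21 rose and 3 fell, where 27% and 21.2% of all genes did (median -0.12, 0.48 with library totals). The receptor Notch1 stood at 10.8 and 9.15 CPM untreated and 26, 25.1 and 24.9 CPM after caerulein (1.35 ± 0.15), and Lfng, which adds sugar to Notch receptors, at 25.5 and 26.8 CPM untreated and 5.23, 8.28 and 6.22 CPM after caerulein (-2.00 ± 0.21). Fibroblast growth factor genes were called in 1 of 12 upward and 1 downward, below the 27% and 21.2% of all genes. The coreceptor Klb, which FGF21 needs, stood at 13.6 and 12.5 CPM untreated and 4.12, 4 and 2.39 CPM after caerulein (-1.89 ± 0.30) and the receptor Fgfr1 at 30.2 and 31.2 CPM untreated and 55.6, 64.7 and 56.8 CPM after caerulein (0.94 ± 0.17). The hormone gene Fgf21 was not called (52.3 and 58.6 CPM untreated and 119.5, 58.7 and 69.8 CPM after caerulein, 0.58 ± 0.42, adjusted p = 0.291).

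Lysosome and autophagy genes rose in 13 of 38 and fell in 6 (27% and 21.2% of all genes did). The counts were 20 and 1 with library totals, and 11 fell without young untreated mouse 2. The regulator Tfe3 stood at 7.81 and 6.61 CPM untreated and 25.8, 24.9 and 28.2 CPM after caerulein (1.87 ± 0.12) and the autophagosome gene Wipi2 at 32.9 and 29.4 CPM untreated and 154, 157 and 148 CPM after caerulein (2.30 ± 0.17). Sat1, which acetylates polyamines for export, stood at 15.1 and 13.5 CPM untreated and 201, 222 and 236 CPM after caerulein (3.94 ± 0.18), and Azin1, which protects the rate-limiting enzyme of polyamine synthesis, at 109.6 and 87.3 CPM untreated and 38.4, 45.3 and 39 CPM after caerulein (-1.27 ± 0.19). Of the neuropeptide genes, Gal, which encodes galanin, stood at 115 and 67.5 CPM untreated and 24.4, 10.1 and 16.8 CPM after caerulein (-2.41 ± 0.32), opposite to Tac1. Among acute phase genes, lipocalin Lcn2 stood at 0.588 and 0.433 CPM untreated and 25.1, 43.1 and 23.4 CPM after caerulein (5.92 ± 0.42), while the secreted lectin Reg3b was not called (32.9 and 15.8 CPM untreated and 53.4, 28.4 and 23 CPM after caerulein, 0.53 ± 0.60, adjusted p = 0.5). The chloride channel Ano1 stood at 25 and 26.5 CPM untreated and 133, 136 and 145 CPM after caerulein (2.42 ± 0.21), and of the genes given in this paragraph so far Reg3b alone overlapped between groups. Against 27% higher and 21.2% lower of all genes, 12 of 36 matrix genes rose and 4 fell. The latter count was 0 with library totals or without untreated mouse 2, 2 with the block or without caerulein mouse 1 or 2, 9 without caerulein mouse 3 and 8 without young untreated mouse 2. Higher were Thbs1 (4.79 and 7.04 CPM untreated and 91.6, 90.2 and 85.4 CPM after caerulein, 3.90 ± 0.26) and the basement membrane gene Lamc1 (21.1 and 17.9 CPM untreated and 51.1, 50.7 and 54.6 CPM after caerulein, 1.42 ± 0.14). Proteasome subunits rose in 12 of 34 and fell in 5 (27% and 21.2% of all genes did). Their counts were 23 and 0 with library totals, and the number that fell was 1 with the block or without either untreated mouse, and 2 without caerulein mouse 1 or 3 and 3 without young untreated mouse 1 or young caerulein mouse 3. Among those that rose was the lid subunit Psmd11 at 14.1 and 11.2 CPM untreated and 41.2, 43.4 and 35 CPM after caerulein (1.66 ± 0.17). Prostaglandin genes rose in 1 of 18 and fell in 2, below the 27% and 21.2% of all genes.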
